A study of Mus musculus with 32 samples.

Results

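The nuclear pore complex is the gate through which RNA and proteins pass between nucleus and cytoplasm. Nucleoporins build its rings, its channel, its cytoplasmic filaments and its nuclear basket. Importins carry cargo inwards and exportins carry it outwards, and the small GTPase Ran sets the direction of both. Faults in this machinery, among them displaced nucleoporins and a disturbed Ran gradient, have been described in motor neuron disease and in tau models. The genes examined here were those whose symbol on the array was Nup followed by a digit, or Kpna, Kpnb, Ipo or Xpo followed by a digit. Ran, Ranbp1, Ranbp2, Rangap1, Rcc1, Tnpo1, Tpr, Rae1 and Nutf2 were added by name. This gave 46 genes on 96 probes, of 27574 genes on 41174 probes in all, and each gene was read from its brightest probe.

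The samples came from the anterior horn of the lumbar spinal cord of female mice, cut out of Nissl-stained sections by laser capture, with about 500 cells per mouse. The SOD1-G93A line, a transgenic for mutant human superoxide dismutase that develops motor neuron disease, was sampled when mice were 8 weeks old, on the B6SJL background, and was set against nontransgenic B6SJL littermates of the same age. The TAU-P301L line, a transgenic for mutant human tau, was sampled at 16 weeks of age on the B6D2F1 background and was set against nontransgenic B6D2F1 littermates of the same age. Motor neurons and the glia around them were collected separately, giving the comparisons SODmn, SODgl, TAUmn and TAUgl with 4 littermate pairs each. The amplified RNA of the transgenic and the control mouse of a pair shared 2 arrays hybridised with both colours, the dyes exchanged between them, which made 32 arrays. Ratios are log2 transgenic over control, averaged over the 2 arrays of a pair, and levels are log2 intensity of single channels. The labels did not name the promoters of the transgenes, and age, strain background and transgene differed together between the models. In RNA from captured cells, fewer cells of a type and less RNA per cell cannot be told apart.

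The extracts varied in quality. The share of probes well above background on both arrays ran from 12.9% to 64.1% over transgenic extracts and from 8.5% to 60% over control extracts. Both minima, 12.9% and 8.5%, were in TAUgl pair 4. Glia extracts were correlated with the mean of the other glia extracts. The lowest values were in TAUgl pair 1 (0.903 transgenic, 0.869 control) and TAUgl pair 4 (0.905 transgenic, 0.872 control). Every other glia extract had at least 0.930. Both motor neuron extracts of the third SOD1-G93A pair stood apart from the other motor neuron extracts: their correlation with the mean of the others was 0.72 for the transgenic and 0.77 for the control extract, and at least 0.935 for every other motor neuron extract. Within pairs, the dye-swapped arrays correlated between -0.77 (the first TAUgl pair) and 0.64 (the fourth SODmn pair), so a ratio rests on the cancelling of large dye effects in several pairs. Motor neuron and glia arrays were also read with different versions of the scanner software and in different scans, so cell type and scan cannot be told apart. Among cell type markers in control extracts, Nefm, a neurofilament, was higher in motor neurons than in glia by 1.67 on the log2 scale (adjusted p = 6.31e-05 by limma). All 7 tested oligodendrocyte markers were below 0 there, with a median of -0.92, and Mbp of myelin differed by -0.94 (adjusted p = 0.00232). Of 8 tested astrocyte markers 5 were below 0, with a median of -0.58 and Glul lowest at -1.60 (adjusted p = 0.00306), and Aqp4, Aldh1l1 and Gja1 lay between 0.02 and 0.14. Of the motor neuron markers, Slc5a7 (1.21), Nefl (1.39), Nefh (0.82), Calca (2.29) and Calcb (1.70) were also above 0. The motor neuron transcription factors Mnx1 (-0.36, limma adjusted p = 0.00297) and Isl1 (-0.36, limma adjusted p = 0.115) went the other way. Chat, Slc18a3 and Prph were not tested because too few extracts were above background. The tested interneuron markers were above 0 as well: Penk (1.11), Slc6a5 (0.72), Slc32a1 (0.60), Gad1 (0.34) and Slc17a6 (0.19).

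Of the 46 genes, 34 passed the filter on dim probes in SODmn, 29 in SODgl, 34 in TAUmn and 28 in TAUgl. Ipo9, Nup107, Nup160, Nup210l, Nup37, Nup43, Nup93, Rcc1, Xpo4 and Xpo6 passed in none of these comparisons. Of the outer ring, 2 of 6 genes passed (Nup85 and Nup133), so little is shown here of that scaffold. Among the genes that passed, the median ratio was 0.002 in SODmn, 0.02 in SODgl, -0.006 in TAUmn and 0.03 in TAUgl. The medians of all genes tested in the same comparisons were 0.0004, 0.02, -0.006 and 0.003. In SODmn 18 of 34 ratios were above 0, in SODgl 15 of 29, in TAUmn 15 of 34 and in TAUgl 19 of 28. The gap between the 2 medians was larger than the SD of the 4 pair medians in TAUgl alone, where that SD was 0.015. No test of the set was run, so this gap does not show a shift.

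A single gene passed the test in a single comparison at an adjusted p of 0.05 over all genes tested: Nup54, lower in SOD1-G93A glia. Of all tested genes in SODgl, 0.0765% were called, 0.0478% higher and 0.0287% lower. No gene of the set was called in SODmn, where 0.00753% of all genes were, nor in TAUmn or TAUgl, where 0% were. At an unadjusted p under 0.05 the counts were 4 in SODmn, 8 in SODgl, 1 in TAUmn and 4 in TAUgl, against 10.6%, 16.2%, 4.21% and 13.9% of all genes tested. The ratio had the same sign in all 4 pairs for 1 gene in SODmn, 7 in SODgl, 5 in TAUmn and 9 in TAUgl, where the shares over all genes were 13.3%, 19%, 12.6% and 17.8%.

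**Figure D1:**
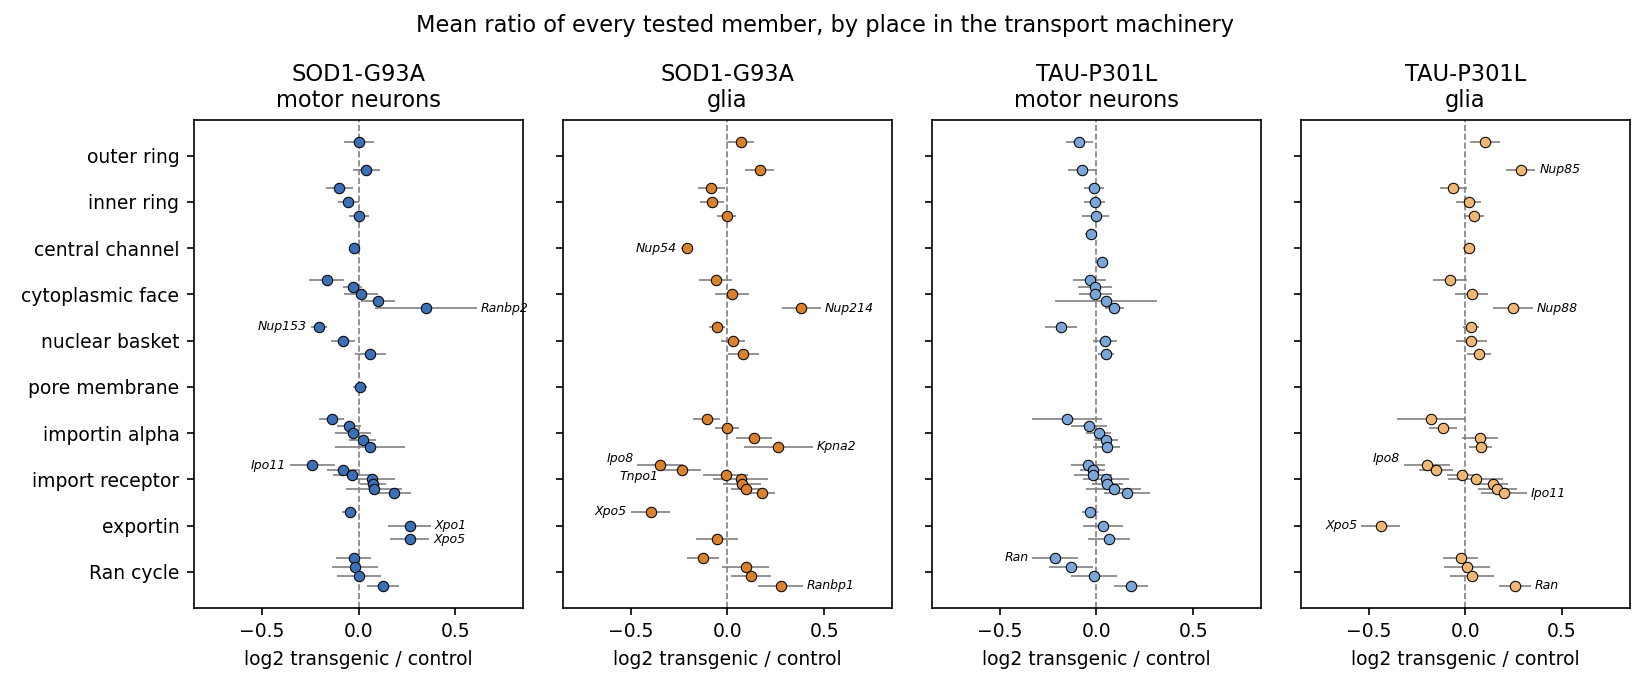
Mean log2 transgenic over control ratio (horizontal axis) of every gene that passed the filter, in rows by its place in the pore or transport cycle, with 1 panel per comparison; bars are the standard error of the limma fit, and genes with a ratio beyond 0.19 in either direction are named. Most points lie near 0 in all 4 panels, and Xpo5 is the leftmost point in both glia panels.

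Xpo5 and Nup54 were the genes of the set called lower in transgenic glia in at least 1 test. Xpo5 encodes exportin-5, which carries precursor microRNAs out of the nucleus. Nup54 encodes a nucleoporin of the central channel, where it forms the permeability barrier together with Nup62 and Nup58. The promoters of these 2 genes are shown as the 250 bases before the annotated start (RefSeq, GRCm38.p6), 5′ to 3′ on the gene's strand. The Xpo5 window is chr17:46202561-46202810 on the plus strand and the Nup54 window chr5:92435200-92435449 on the minus strand. Capitals mark GCATGCGC or its reverse complement GCGCATGC, the core of the NRF1 site, in Xpo5, and CCGGAAG, the core of ETS factors, in Nup54.
Xpo5: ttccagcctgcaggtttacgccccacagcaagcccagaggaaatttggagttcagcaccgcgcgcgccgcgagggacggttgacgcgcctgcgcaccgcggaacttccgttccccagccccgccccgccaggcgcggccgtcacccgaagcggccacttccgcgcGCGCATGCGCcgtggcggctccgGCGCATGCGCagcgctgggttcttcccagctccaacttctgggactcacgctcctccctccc
Nup54: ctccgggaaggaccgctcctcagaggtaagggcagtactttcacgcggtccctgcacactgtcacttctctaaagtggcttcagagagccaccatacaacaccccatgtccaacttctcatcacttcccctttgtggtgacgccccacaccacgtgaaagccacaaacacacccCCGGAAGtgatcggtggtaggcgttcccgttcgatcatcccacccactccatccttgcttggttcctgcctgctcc

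The Xpo5 window holds 2 separate runs of the NRF1 core, each read on both strands with the 2 matches overlapping. On either strand this motif is present in 2.26% of all 32851 promoter windows and in 6 of the 37 genes of the set with a window (16.2%). The Nup54 window holds 1 ETS core, which is present in 6.91% of all windows and in 5 of the 37 genes (13.5%). Another 4 motifs were searched on both strands, and each had a higher share in the set as well. The GC box GGGCGG was in 32.7% of all windows and 70.3% of the set's genes, and once in Xpo5. The E box CACGTG was in 6.02% and 16.2%, and once in Nup54. CCAAT was in 33.8% and 45.9% and the CRE TGACGTCA in 1.55% and 5.41%, and neither was in the Xpo5 or the Nup54 window. A gene of the set counted if any of its windows held the motif, whereas the share over all is per window, so the units differ. These are matches of letters, and binding was not measured.

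Xpo5 was below 0 in each of the 8 glia pairs of the 2 models. The share of all genes with the same sign in all 8 glia pairs is not given. In SOD1-G93A glia the ratios were -0.30, -0.58, -0.27 and -0.44, with a mean of -0.40 ± 0.14 (SD, n = 4; limma adjusted p = 0.0833). In TAU-P301L glia they were -0.16, -0.26, -0.56 and -0.77, with a mean of -0.44 ± 0.28 (SD, n = 4; limma adjusted p = 0.143). TAUgl pair 4, with the ratio of -0.77, and TAUgl pair 1, with -0.16, hold the glia extracts with the lowest correlations given above. Neither comparison passed the test alone. The colonies share no mice, so the effects were also averaged in the same fit, a comparison chosen after the values had been seen. The glia comparisons did share scans, however. The second SODgl and the first TAUgl pair were in the same scan, as were the first SODgl and the second TAUgl pair. The mean of both glia effects was -0.42 ± 0.07 (standard error), with an adjusted p of 0.0152 by limma. In that average 8.35% of all 8431 genes tested were called, 1.33% higher and 7.02% lower.

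In SODgl, Xpo5 stood at 8.59, 7.98, 7.85 and 8.00 log2 units in transgenic extracts and at 8.89, 8.56, 8.11 and 8.44 in their controls. In TAUgl it stood at 7.79, 8.36, 8.75 and 9.23 in transgenic extracts and at 7.95, 8.62, 9.31 and 9.996 in their controls. The groups overlapped in both models while every line between paired extracts sloped the same way. On single arrays the direction was less uniform. Xpo5 was below 0 on 12 of 16 glia arrays, and both arrays of a pair had the same sign in 4 of 8 pairs. Median centring of the arrays in place of loess reduced the mean of both glia effects to -0.11 (adjusted p = 0.437). Leaving out the third or the fourth TAUgl pair moved its adjusted p to 0.0576 and 0.0597. The other 3 probes of Xpo5 were not above background in enough extracts to be tested.

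**Figure D2:**
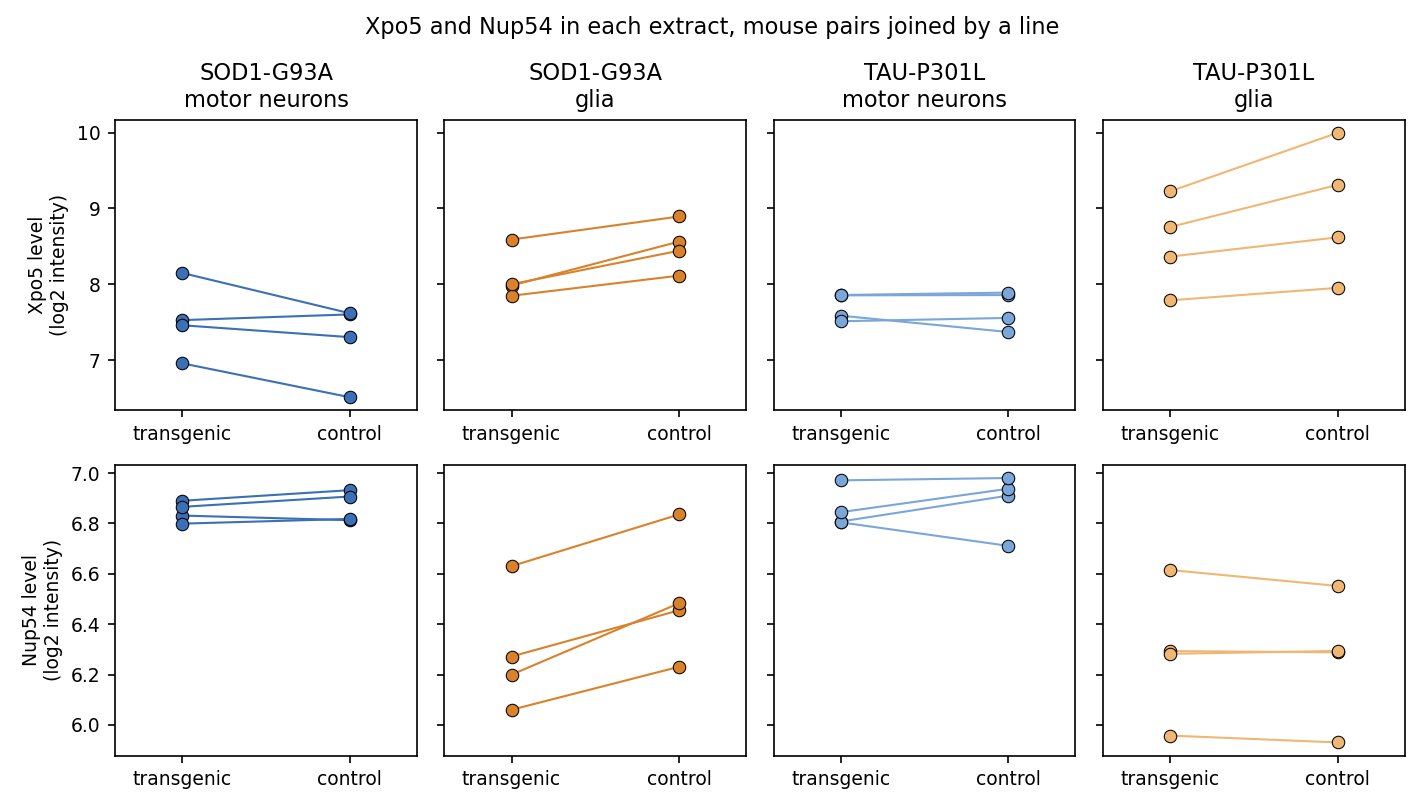
Level of Xpo5 (top row) and Nup54 (bottom row) in log2 intensity, in every transgenic and control extract of the 4 comparisons, with the 2 mice of a pair joined by a line. All 8 glia lines of Xpo5 and all 4 SODgl lines of Nup54 run lower at the transgenic end, and the Nup54 lines of TAUgl are flat.

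In motor neurons Xpo5 gave no such pattern. The SODmn ratios were -0.08, 0.16, 0.45 and 0.53 (mean 0.27 ± 0.28, SD, n = 4; limma adjusted p = 0.428), and the TAUmn ratios were 0.22, -0.004, -0.03 and -0.04 (mean 0.03 ± 0.12, SD, n = 4; limma adjusted p = 0.995). Xpo1, the main exportin for proteins, was likewise above 0 in SODmn on average (0.38, 0.69, 0.17 and -0.18, limma adjusted p = 0.448). The difference of the Xpo5 effects, SODmn minus SODgl, was 0.66 ± 0.14 (standard error) with a limma adjusted p of 0.0858. The difference TAUmn minus TAUgl was 0.47 ± 0.14 with a limma adjusted p of 0.828. Neither difference passed the test. At an unadjusted p under 0.05 the differences held 5 of 28 genes of the set for SODmn minus SODgl (14.9% of all genes), 3 of 27 for TAUmn minus TAUgl (5.67%), 3 of 33 for SODmn minus TAUmn (11.3%) and 3 of 28 for SODgl minus TAUgl (6.88%). After adjustment 0% of all genes were called in any of these 4 contrasts. Without the third SODmn pair, the mean of Xpo5 in SODmn was 0.20 (adjusted p = 0.589).

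Marker genes of the cell types that a glial capture could hold were set beside the Xpo5 result. In TAUgl, 8 of 9 astrocyte markers were tested and all 8 were below 0, with a median of -0.16, and 6 of 7 tested oligodendrocyte markers were below 0, with a median of -0.21. In SODgl, 7 of 8 tested astrocyte markers and 5 of 7 oligodendrocyte markers were above 0, with medians of 0.08 and 0.06. The mean level of the 9 astrocyte markers ran from 8.17 to 8.86 in transgenic and from 8.06 to 8.72 in control SODgl extracts. In TAUgl it ran from 7.81 to 8.37 in transgenic and from 7.86 to 8.65 in control extracts. Whether the make-up of the captures had a part in the Xpo5 result was not tested. Both tested endothelial markers were above 0 in SODgl (median 0.45) and below 0 in TAUgl (median -0.10). The mean level of all 4 endothelial markers was higher in the transgenic extract of every SODgl pair, by 0.32, 0.50, 0.12 and 0.34. Both red cell markers were below 0 in TAUgl, and their mean level was lower in the transgenic extract of every TAUgl pair (-0.62, -0.44, -0.64 and -0.14). In SODgl the red cell differences were -0.28, 0.53, 0.33 and -0.33. Of the microglia markers 5 of 6 tested were above 0 in SODgl and 1 of 5 in TAUgl, with medians of 0.08 and -0.06. Of the motor neuron markers 4 of 7 tested were above 0 in SODgl and 7 of 8 in TAUgl, with medians of 0.0001 and 0.25.

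Nup54 was lower in SOD1-G93A glia, with ratios of -0.18, -0.28, -0.21 and -0.17 (mean -0.21 ± 0.05, SD, n = 4; limma adjusted p = 0.0470). Its level was 6.27, 6.20, 6.63 and 6.06 log2 units in transgenic extracts and 6.46, 6.48, 6.84 and 6.23 in their controls, again with overlapping groups. The probe was dim, well above background in 3 of 4 transgenic and 2 of 4 control SODgl extracts. The pair means were close to each other although the arrays behind them were not: in the second pair the arrays gave 0.25 and -0.82, and 6 of 8 SODgl arrays were below 0. The call was fragile. It was lost in 14 of the 17 alternatives in which it could be tested, among them a fit on the tested genes only (adjusted p = 0.0639) and the omission of any single SODgl pair (0.0518 to 0.135). The scanner's own processed signals, which carry no offset, gave a mean of -0.60 (adjusted p = 0.250). The other 2 probes of the gene were near background.

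Outside SOD1-G93A glia, Nup54 was near 0. The mean was 0.02 in TAUgl, -0.02 in SODmn and -0.03 in TAUmn. The differences SODgl minus TAUgl (-0.23, adjusted p = 0.283) and SODmn minus SODgl (0.19, adjusted p = 0.0858) did not pass the limma test. Nup62, its partner in the channel, passed the filter in TAUmn alone, where its ratio was 0.03.

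Nup85, a subunit of the outer ring, was higher in transgenic glia on average. The TAUgl ratios were 0.16, 0.49, 0.27 and 0.22 (mean 0.29 ± 0.14, SD, n = 4; limma adjusted p = 0.184), and the SODgl ratios were 0.29, 0.15, 0.24 and -0.02 (mean 0.17 ± 0.14, SD, n = 4; limma adjusted p = 0.291). The mean of both glia effects was 0.23 ± 0.05 (standard error), called at a limma adjusted p of 0.0209. Nup54 was called in that average as well (-0.09, adjusted p = 0.0196), although its TAUgl ratio was near 0. With Xpo5 this made 3 of 28 tested genes (1 higher, 2 lower), and the background of 8.35% lies close to that share. On 13 of 16 glia arrays Nup85 was above 0, and both arrays of a pair had the same sign in 5 of 8 pairs. In the first TAUgl pair the arrays gave 1.31 and -0.98, and in the second SODgl pair 0.78 and -0.49. The count of 3 became 0 with processed signals, median centring, scaling between arrays or the authors' deposited values, and 7 with array weights. The background of 8.35% belongs to the main fit, and the shares of all genes called under these alternatives are not given. No gene of the set was called by limma in the mean of both motor neuron effects, where 0% of all genes were, and 1 of 33 had an unadjusted p under 0.05 (4.06% of all genes). In the mean of both glia effects 8 of 28 did (20.9% of all genes).

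**Figure D3:**
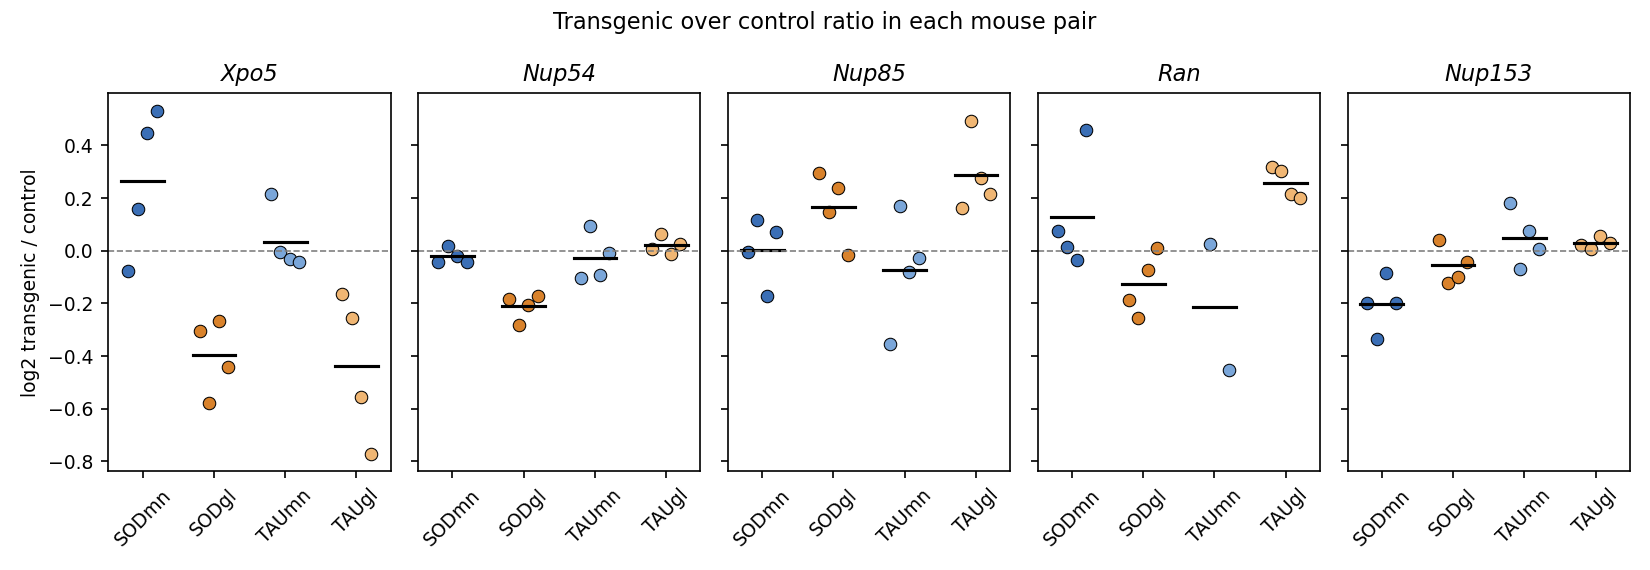
Log2 transgenic over control ratio in every littermate pair (points) and the mean of the pairs (line), for 5 genes in the 4 comparisons. Xpo5 is below 0 in all 8 glia pairs, Nup54 in all 4 SODgl pairs and Nup153 in all 4 SODmn pairs, and Ran has values for 2 of the 4 TAUmn pairs.

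In SOD1-G93A motor neurons, Nup153, which anchors the nuclear basket and docks import receptors, had ratios of -0.20, -0.34, -0.08 and -0.20 (mean -0.20 ± 0.10, SD, n = 4; limma adjusted p = 0.212). It was the only gene of the 34 with the same sign in all 4 pairs, and it did not pass the test. Without the third pair its mean was -0.24 (adjusted p = 0.145). Its TAUmn mean was 0.05, and the difference SODmn minus TAUmn was -0.25 ± 0.06 (standard error; limma adjusted p = 0.237). The other basket proteins were closer to 0, at -0.08 for Nup50 and 0.06 for Tpr. Ranbp2, the large protein of the cytoplasmic filaments, had the highest mean in SODmn (0.35), and this came from the third pair at 2.03, with -0.25, -0.13 and -0.26 in the others. A second probe of Ranbp2 gave -0.04 in the third pair and averaged -0.02, so the probes disagree. The third pair holds the extracts that stood apart.

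In TAU-P301L motor neurons the 5 genes with the same sign in all 4 pairs had small ratios. Nutf2, which returns Ran-GDP to the nucleus, averaged 0.18, Ipo11 0.16 and Rae1, an mRNA export factor, 0.09. Nup133 of the outer ring averaged -0.09 and Ranbp1, which helps Ran to hydrolyse GTP, -0.13. The limma adjusted p was 0.995 for each. A second probe of Nutf2 averaged 0.02 and was below 0 in the first pair (-0.13), so the probes disagree. Tpr, the filament of the basket, was the only gene of the set with an unadjusted p under 0.05 (0.07, -0.34, -0.26 and -0.20). A second probe of Tpr averaged -0.15 in the same comparison.

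The Ran cycle did not pass the test in the glia of either model. In TAUgl, Ran had ratios of 0.32, 0.30, 0.21 and 0.20 (mean 0.26 ± 0.06, SD, n = 4; limma adjusted p = 0.240). In SODgl they were -0.19, -0.25, -0.07 and 0.01 (mean -0.13 ± 0.12, SD, n = 4; limma adjusted p = 0.516). The difference SODgl minus TAUgl was -0.38 ± 0.12 (standard error; limma adjusted p = 0.539). Ranbp1 was above 0 in all 4 SODgl pairs (0.07, 0.10, 0.33 and 0.60, limma adjusted p = 0.247) and averaged 0.03 in TAUgl. Rangap1, the GTPase activating protein for Ran, had means between -0.02 and 0.09 over the 4 comparisons, although its SODmn pairs ran from -0.54 to 0.48.

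Among the import receptors, Ipo13 was above 0 in all 4 SODgl pairs (0.23, 0.21, 0.04 and 0.23, limma adjusted p = 0.197), as was Kpnb1, the importin beta that carries classical import cargo (mean 0.10, adjusted p = 0.616). A second probe of Kpnb1 averaged 0.03 in SODgl and was below 0 in the third pair (-0.04). Ipo8, which in human cells also binds Argonaute proteins, had ratios of 0.001, -0.26, -0.26 and -0.87 in SODgl and -0.004, -0.15, -0.28 and -0.36 in TAUgl (limma adjusted p = 0.154 and 0.502). Its second probe averaged 0.07 in SODgl, so the 2 probes differed in sign there. Kpna3, an importin alpha, was below 0 in all 8 glia pairs, with means of -0.11 in SODgl and -0.12 in TAUgl (limma adjusted p = 0.514 and 0.515). A second probe of Kpna3 averaged -0.009 and -0.03 in the same comparisons, and the other one, above background in 3 of 8 extracts of each, averaged 0.17 and 0.12, so the probes disagree. Ipo11 was above 0 in all 4 TAUgl pairs, from 0.05 to 0.52.

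Nup214, on the cytoplasmic face, had the highest mean in SODgl (0.38) but a value in 3 pairs only, 0.24, 0.32 and 0.58 (limma adjusted p = 0.0867). The fit dropped the second pair, where a spot carried an outlier flag. Another 2 probes of Nup214 were tested and averaged 0.02 and -0.02 in SODgl, so the probes disagree. Nup88, its partner, averaged 0.24 over 3 TAUgl pairs (limma adjusted p = 0.312).

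A wider list of 38 further genes of pores, transport and the nuclear envelope on the array gave no call in any of the 4 comparisons, with 23 genes tested in SODmn, 17 in SODgl, 21 in TAUmn and 15 in TAUgl. In SODgl 15 of the 17 were above 0, with a median of 0.08, where 56.8% of all genes were above 0. Rcc2 (0.40, adjusted p = 0.0832) and Rangrf, the guanine nucleotide release factor for Ran (0.24, adjusted p = 0.0833), had the smallest p-values there by limma. Rangrf averaged 0.29 in TAUgl (adjusted p = 0.143).

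In control mice the transport genes were compared between the captured cell types, without a transgene. Of 31 genes tested over 8 motor neuron and 8 glia extracts, 16 were called higher and 3 lower in motor neurons. Of all genes, 39.8% were called, 26.9% higher and 12.9% lower. The median difference, motor neurons minus glia, was 0.30 for the set and 0.11 for all genes. These differences carry the change of scanner software and scan described above. Without the control extract of the third SODmn pair 20 of 31 were called, and within a single colony 4 (B6SJL) and 9 (B6D2F1) were. The shares of all genes called under these alternatives are not given, so these counts cannot be set against a background. The filter asked for 8 of 16 extracts in all, so a gene could enter through motor neurons alone. With at least 4 extracts above background in each cell type, an alternative added after the values were seen, 27 genes of the set were tested, and 13 were called higher and 3 lower (22% and 13.6% of all 8463 genes tested). Kpna1, Rae1, Xpo1 and Ranbp2 did not meet that filter.

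Of the 5 importin alphas, the adaptors that bind classical import signals, 4 were called higher: Kpna2 by 0.82 ± 0.26, Kpna4 by 0.75 ± 0.17, Kpna6 by 0.71 ± 0.24 and Kpna1 by 0.49 ± 0.06 (standard errors; limma adjusted p = 0.0220, 0.00385, 0.0280 and 0.000149). Kpna1 was well above background in 8 of 8 motor neuron but 1 of 8 glia extracts, so it was tested through motor neurons and its difference is set against a glia value mostly at background. The call of Kpna6 was lost in 8 of 28 alternatives, among them the omission of single extracts (adjusted p up to 0.0562). Kpna3 had -0.24 (adjusted p = 0.169), and its other 2 probes gave 0.04 and 0.29, so the probes disagree. Of the import receptors, Ipo11 (0.73), Ipo4 (0.69) and Kpnb1 (0.52) were called higher (limma adjusted p = 0.00278, 0.00297 and 0.0219). A second probe of Kpnb1 gave 0.10 and a second probe of Kpna2 0.32.

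The 3 genes of the nuclear basket were called higher in motor neurons, with Tpr at 0.86 ± 0.13, Nup50 at 0.42 ± 0.06 and Nup153 at 0.30 ± 0.10 (limma adjusted p = 0.000255, 0.000129 and 0.0268). Tpr ran from 7.13 to 7.79 with a median of 7.55 in motor neurons and from 6.19 to 6.97 with a median of 6.75 in glia. Its second probe gave -0.12, so the probes disagree. The Nup153 call was lost in 9 of 28 alternatives. Nup54 (0.49), Nup88 (0.44), Nup133 (0.32), Nup35 (0.31), Rae1 (0.26) and Xpo1 (0.33) were called higher as well, with limma adjusted p between 0.0013 and 0.0485. Rae1 was above background in 6 of 8 motor neuron and 2 of 8 glia extracts and Xpo1 in 7 and 3, so both were tested mostly through motor neurons. The calls of Xpo1, Nup133 and Rae1 were lost in 17 of 27, 17 of 28 and 16 of 27 alternatives.

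**Figure D4:**
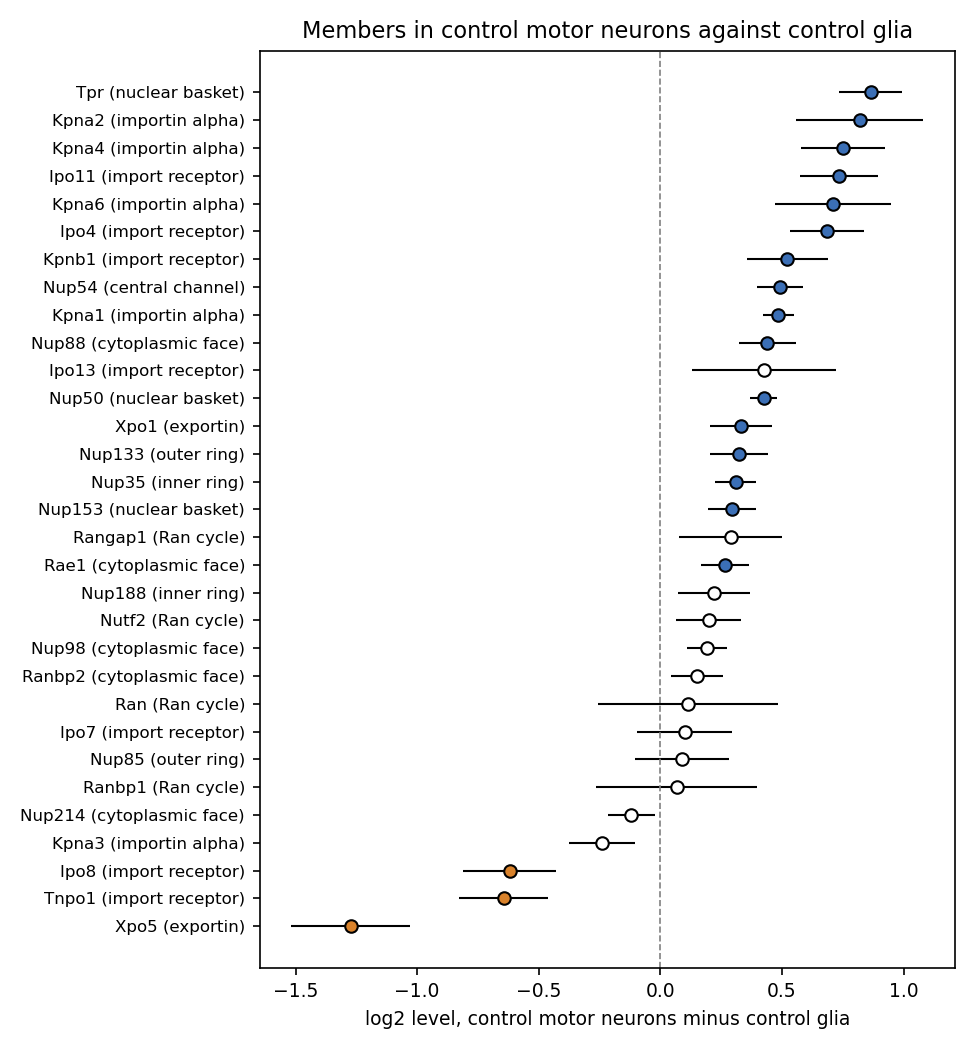
Difference in log2 level, control motor neurons minus control glia, for the 31 genes tested, with the standard error of the fit; filled points were called at an adjusted p under 0.05 (blue higher, orange lower in motor neurons) and open points were not. Called points on the right outnumber those on the left by 16 to 3, and Xpo5 is lowest at -1.27.

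Xpo5, Tnpo1 and Ipo8 were lower in motor neurons. Xpo5 ran from 6.51 to 7.89 with a median of 7.58 in motor neurons and from 7.95 to 9.996 with a median of 8.59 in glia, without overlap. The difference was -1.27 ± 0.24 (standard error; limma adjusted p = 0.00127), a level 2.42-fold lower in motor neurons. Tnpo1, an import receptor of the importin beta family, differed by -0.64 ± 0.18 (adjusted p = 0.0131), and Ipo8 by -0.62 ± 0.19 (adjusted p = 0.0182). The groups did not overlap for Xpo5, Nup50 and Tpr, nor for Kpna1 with its glia values mostly at background, and over all genes this was so for 6.21%.

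The Ran cycle itself was not called. Ran differed by 0.11 ± 0.37, Ranbp1 by 0.07 ± 0.33, Rangap1 by 0.29 ± 0.21 and Nutf2 by 0.20 ± 0.13 (standard errors; limma adjusted p = 0.823, 0.884, 0.290 and 0.248). The level of Ran lay between 8.47 and 11.29 in motor neurons, where 6 of 8 extracts had a value, and between 10.0006 and 10.8 in glia. The control motor neuron extract of the third SOD1-G93A pair held the lowest Ran value, and without it the difference was 0.51 (adjusted p = 0.00531). Ran and Ranbp1 changed sign with the processed signals (-0.42 and -0.08) and in the B6SJL colony alone (-0.25 and -0.23). In the wider list 18 genes were tested. Cse1l, which recycles importin alpha (0.59), Tnpo3 (0.49), Xpot (0.49), Gle1 (0.49) and Syne2 (0.30) were called higher in motor neurons, and Thoc1 (-0.35) lower. Of all genes tested, 26.9% were called higher and 12.9% lower. The share called higher in this list was near that of all genes. Cse1l, Syne2 and Thoc1 were above background in 3 of 8 glia extracts each.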

How the data were processed

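The 32 deposited arrays are Agilent scanner files with spot intensity per channel, made by the authors with Feature Extraction 8.5.1.1 per the submitters' processing notes, although glia files carry 9.5.1.1 in their headers. Background was corrected with normexp (offset 50), ratios were normalised by loess within arrays, and outlier-flagged spots were left out, with limma 3.58.1 in R 4.3.3. The offset shrinks the ratios of dim probes. Dye-swapped arrays were averaged, so the pair was the replicate. limma was fitted on all 27574 genes and 16 pairs, with Benjamini-Hochberg adjustment over genes well above background in at least 4 of 8 extracts. Both this fit and one on tested genes only had been seen when the first was kept, as written in the design. Levels came from single channels (Aquantile), tested over 16 control extracts with colony as a term, for genes above background in at least 8. The authors' deposited log10 ratio per spot (values of the series matrix) and the scanner's processed signal served as alternatives. The array number limits the precision. The fits were tested on simulated data, where false calls exceeded the threshold's share in every comparison and were more frequent with the whole-table fit than with the fit on tested genes. The set and lists were chosen with earlier results of these data known. Genes were named if called in any comparison, or by the 3 smallest p-values in each direction among those of 1 sign in 4 pairs. For cell types the 5 largest called differences each way and the Ran cycle were named. Other named genes were chosen after their values were seen.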

Additional observations from a re-analysis of the deposited data

Results flagged for a closer look

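Of 50 groups of 4 pair ratios or 6 to 8 control levels checked with Dixon's test at the 5% level, 6 held a value set apart from the rest, and chance gives about 1 in 20. In SODgl, Ipo13 had 0.0436 in the third pair, below the other 3. In TAUmn, Xpo5 had 0.215 in the first pair, above the other 3. Among control motor neuron extracts, the third SODmn pair was lowest for Ran (8.47) and for Xpo5 (6.51), and the second TAUmn pair was highest for Ipo8 (7.06). Among control glia extracts, the fourth TAUgl pair was lowest for Ran (10.0006). The control extract of the third SODmn pair had 16.3% of probes above background, and the part of this in its Ran and Xpo5 values was not tested.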

How the results depend on the processing

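The alternatives were other background and array normalisations, other filters on dim probes, the mean of all probes of a gene, other fits, and leaving out pairs, scans or colonies. Of the values recomputed for counts and medians 282 stayed close to those reported and 42 moved. Of those for single genes 999 kept their direction and their side of the threshold, 126 lost the call, 6 gained it and 24 changed sign. Signal over background limits what could be tested: with a filter on all 8 extracts 15 genes were left in SODgl and 9 in TAUgl, and with all 16 control extracts 1 gene was left. Apart from such filters, the cause of the changes was not tested. Counts of called genes below come without the shares of all genes called under the same alternatives, so they cannot be set against a background.

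The SODgl count of 1 became 0 with processed signals, median centring, scaling between arrays, the authors' deposited values, no filter, the filter on all 8 extracts, the mean of all probes, each comparison fitted alone, tested genes only, scan 3 alone and without the scan 5 pairs, and 0 with any pair left out. Array weights made it 2 and the TAUgl count 3, Xpo5 among them in both comparisons (adjusted p = 0.0481 and 0.0125), and within scan 4 the TAUgl count was 1. The count of 3 in the mean of both glia effects was 0 with processed signals, median centring, scaling and the deposited values, 1 with no filter and 7 with array weights. With a pair left out it lay between 0 and 5, at 5 without the first and at 0 without the third or the fourth TAUgl pair.

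The SODgl median was 0.11 with processed signals and 0.11 with median centring, and lay between -0.0350 and 0.0827 with a pair left out. The TAUgl median was 0.0858 with processed signals, 0.10 with median centring, 0.0623 with the deposited values, -0.12 with the filter on all 8 extracts and 0.050 within scan 4. The SODmn median was -0.10 with median centring. The median of motor neurons minus glia was 0.54 with processed signals (0.16 for all genes) and -0.64 with the filter on all 16 extracts, where the count was 1; the count was 4 in B6SJL and 9 in B6D2F1.

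None of the values that changed sign passed the test. SODmn Nup54 was 0.0513 with processed signals, and TAUgl Nup54 was -0.0631 with median centring and -0.00776 with scaling. SODmn Nup85 was -0.20 with median centring, -0.00405 with scaling, -0.0135 with array weights, -0.0511 within scan 1, and between -0.0358 and 0.0609 with a pair left out; in TAUmn it lay between -0.15 and 0.0199 with a pair left out. Xpo5 in TAUmn was -0.0378 within scan 1 and between -0.0265 and 0.0599 with a pair left out. For motor neurons minus glia, Ran was -0.42 with processed signals and -0.25 in B6SJL, and lay between -0.0527 and 0.51 with an extract left out. Ranbp1 was -0.0774 with processed signals, -0.15 in transgenic extracts, -0.23 in B6SJL, and between -0.0528 and 0.31 with an extract left out.

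For log2 ratios, the correlation of deviations between samples with the same replicate number fell below 0.1 in at least 1 pair of each comparison, so the numbers were not taken to pair them. For control levels it was over 0.1 in all 4 pairs of SODmn and TAUmn (0.31 to 0.50), whose same-numbered arrays shared a scan. It fell below 0.1 in some pairs between the motor neurons and the glia of a colony, which the block for the cell type comparison joins. With a replicate block 0 genes of the set were called in the differences between effects, and 18 in motor neurons minus glia. The labels did not say whether same-numbered motor neuron and glia extracts came from the same mouse. Low correlations cannot decide this, because large dye effects enter several pairs. The main fit for cell types did not join such extracts.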
